A study of Mus musculus with 10 samples.

Results

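Interferon-stimulated genes are the genes a cell turns on when an interferon reaches its receptor. The 9 described here, Ifit1, Ifit3, Isg15, Irf7, Stat2, Bst2, Oasl2, Rsad2 and Usp18, were taken by name as a list drawn up with earlier results of these data known, and were found by their Ensembl identifiers in a table of 47729 genes. All 9 had enough counts to be tested, among 16362 genes that did. RNA was sequenced from the retinal pigment epithelium (RPE), the pigmented cells that face the photoreceptors, in 5 CD1 mice, wild-type, at postnatal day 40. The GFP control eye of each mouse had received AAV Best1-GFP, and its Nrf2 eye AAV Best1-GFP together with AAV Best1-hNrf2, so that n = 5 eyes in each group. AAV is an adeno-associated virus that carries a gene into cells, the human Best1 promoter is active in the RPE, and hNrf2 is the human coding sequence of Nrf2, the transcription factor behind much of the antioxidant response. Both groups had therefore been injected under the retina and carried a vector, the Nrf2 eyes had received an additional vector of another capsid, and neither uninjected eyes nor eyes with an equal amount of a second control vector were analysed here. The RNA was purified from the fluid collected off an eyecup that had been freed of retina and connective tissue, with no sorting of cells, and in such bulk RNA fewer cells of a type and less RNA per cell cannot be told apart. The question put to the counts was how far a higher level of these genes in the Nrf2 eye was shared by all 5 mice and how far it came from single eyes.

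The libraries held 12298404 to 27310638 counts, and levels are given as CPM, the counts scaled to a common library total. Nfe2l2, the mouse gene for Nrf2, read 88.7 ± 12.7 CPM (mean ± SD, n = 5) in the control eyes and 353 ± 53.6 CPM in the Nrf2 eyes, higher by 1.97 on the log2 scale (adjusted p = 0.00030, edgeR quasi-likelihood test with Benjamini-Hochberg adjustment), and every Nrf2 eye lay above every control eye. How many of these reads came from the human coding sequence was not tested. The 16 RPE markers summed to between 26186 and 50811 CPM in the control eyes and between 14124 and 34278 CPM in the Nrf2 eyes, lower in the Nrf2 eye of all 5 mice, with 7 of the 16 lower past the test, though not Ttr, the most abundant.

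Interferons bind receptors at the cell surface, whose kinases Jak1 and Tyk2 phosphorylate transcription factors, Stat2 among them. The complex that holds Stat2 and Irf9 binds the interferon-stimulated response element (ISRE) in front of target genes, many of which block steps of viral replication, while others, such as Irf7 and Usp18, feed back on the pathway. Cells of the RPE, like most cells, carry this pathway, and macrophages, microglia and lymphocytes in the tissue can make and answer interferons too.

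The stretch before the start site, where an ISRE can lie, was read for each gene. RefSeq promoter windows (GRCm38.p6, 250 bases before to 50 after the start site) were at hand for 8 of the 9 genes, the exception being Usp18. The ISRE core, spelled here as GAAA, any 2 bases, GAAA and searched on both strands, stood in the window of 6 of the 8, against 1131 of all 32851 windows (3.44%). Ifit1, Ifit3, Isg15 and Bst2 held at least 2 matches each, as did 74 of all windows (0.225%). The 250 bases before their start sites are shown for that reason, 5′ to 3′ on the strand of the gene, with the ISRE core matches in capitals. They lie at chr19:34640639-34640888 (Ifit1, plus strand), chr19:34583279-34583528 (Ifit3, plus strand), chr4:156200819-156201068 (Isg15, minus strand) and chr8:71537473-71537722 (Bst2, minus strand).
Ifit1: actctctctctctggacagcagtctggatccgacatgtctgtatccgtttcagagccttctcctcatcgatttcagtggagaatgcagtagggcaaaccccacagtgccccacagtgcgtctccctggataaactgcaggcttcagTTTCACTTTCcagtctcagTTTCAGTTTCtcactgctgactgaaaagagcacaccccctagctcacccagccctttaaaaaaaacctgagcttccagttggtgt
Ifit3: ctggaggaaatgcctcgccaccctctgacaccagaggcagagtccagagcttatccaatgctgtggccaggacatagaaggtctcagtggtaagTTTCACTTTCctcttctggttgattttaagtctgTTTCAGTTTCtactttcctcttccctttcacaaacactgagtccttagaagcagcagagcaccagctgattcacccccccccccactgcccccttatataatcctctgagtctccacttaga
Isg15: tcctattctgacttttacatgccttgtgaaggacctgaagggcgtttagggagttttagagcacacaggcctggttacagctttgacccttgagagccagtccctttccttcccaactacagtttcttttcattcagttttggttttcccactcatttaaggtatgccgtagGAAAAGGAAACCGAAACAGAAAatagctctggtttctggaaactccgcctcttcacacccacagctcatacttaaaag
Bst2: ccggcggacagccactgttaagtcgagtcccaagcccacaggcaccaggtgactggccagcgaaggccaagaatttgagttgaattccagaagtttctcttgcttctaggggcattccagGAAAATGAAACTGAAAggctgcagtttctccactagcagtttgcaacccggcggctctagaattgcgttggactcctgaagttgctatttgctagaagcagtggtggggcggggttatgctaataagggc

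Counted from the start site, the matches of Ifit1 lay at -104 to -95 and -85 to -76, those of Ifit3 at -156 to -147 and -122 to -113, the 3 overlapping ones of Isg15 between -78 and -57, and the overlapping pair of Bst2 at -130 to -121 and -124 to -115. Stat2 and Rsad2 had 1 match each, and in the windows of Irf7 and Oasl2 these letters were not found. The GAS core, an element of genes that answer interferon gamma, spelled here as TTC, any 3 bases, GAA, was found in the window of Bst2 alone among the 8, where it overlaps the ISRE core, and in 8.30% of all windows. Such matches describe the letters and are no proof of binding.

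Per kilobase of exon, the control eyes held the most RNA of Ifit3, at 37.4 CPM per kb, and of Bst2, at 21.8. Isg15 followed at 10.9, Oasl2 at 9.02, Irf7 at 8.75, Stat2 at 5.58 and Ifit1 at 4.60, and Usp18 at 2.09 and Rsad2 at 0.597 CPM per kb closed the order. All 9 genes were thus read in control eyes. Their spread there was wide. The highest control eye held 1.59 times the level of the lowest for Stat2, 1.77 times for Bst2, 2.14 times for Ifit3 and between 3.69 and 5.41 times for Ifit1, Oasl2, Irf7, Usp18 and Isg15. For Rsad2 the ratio was 21.2, set by a control eye of mouse 5 with 6 counts. With such a spread, the differences between the neighbours Isg15, Oasl2 and Irf7 in this order lay within the spread between eyes.

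Bst2 and Ifit1 rose in the Nrf2 eyes, and none of the 9 genes fell. All 9 had a log2 fold change above 0, with a median of 0.40 against -0.01 over all tested genes, and the unadjusted p was below the threshold of 0.05 for 3 of them, all higher. DESeq2 called 3 higher and 0 lower. At the unadjusted threshold 9.58% of all tested genes were higher, and by DESeq2 5.42% were. In the edgeR test, which called Bst2 and Ifit1, 6.33% of all tested genes changed in either direction and 3.60% were higher in the Nrf2 eyes. Bst2, Ifit1 and Rsad2 were higher in the Nrf2 eye of all 5 mice, as were 9.23% of all genes, and Bst2 alone had its lowest Nrf2 eye above its highest control eye, as had 3.87% of all genes. Each of the other 6 genes was lower in at least 1 Nrf2 eye. Log2 fold changes are given with the SE from the 5 within-mouse differences, and every adjusted p is from the edgeR test with the mouse as a block.

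**Figure D1:**
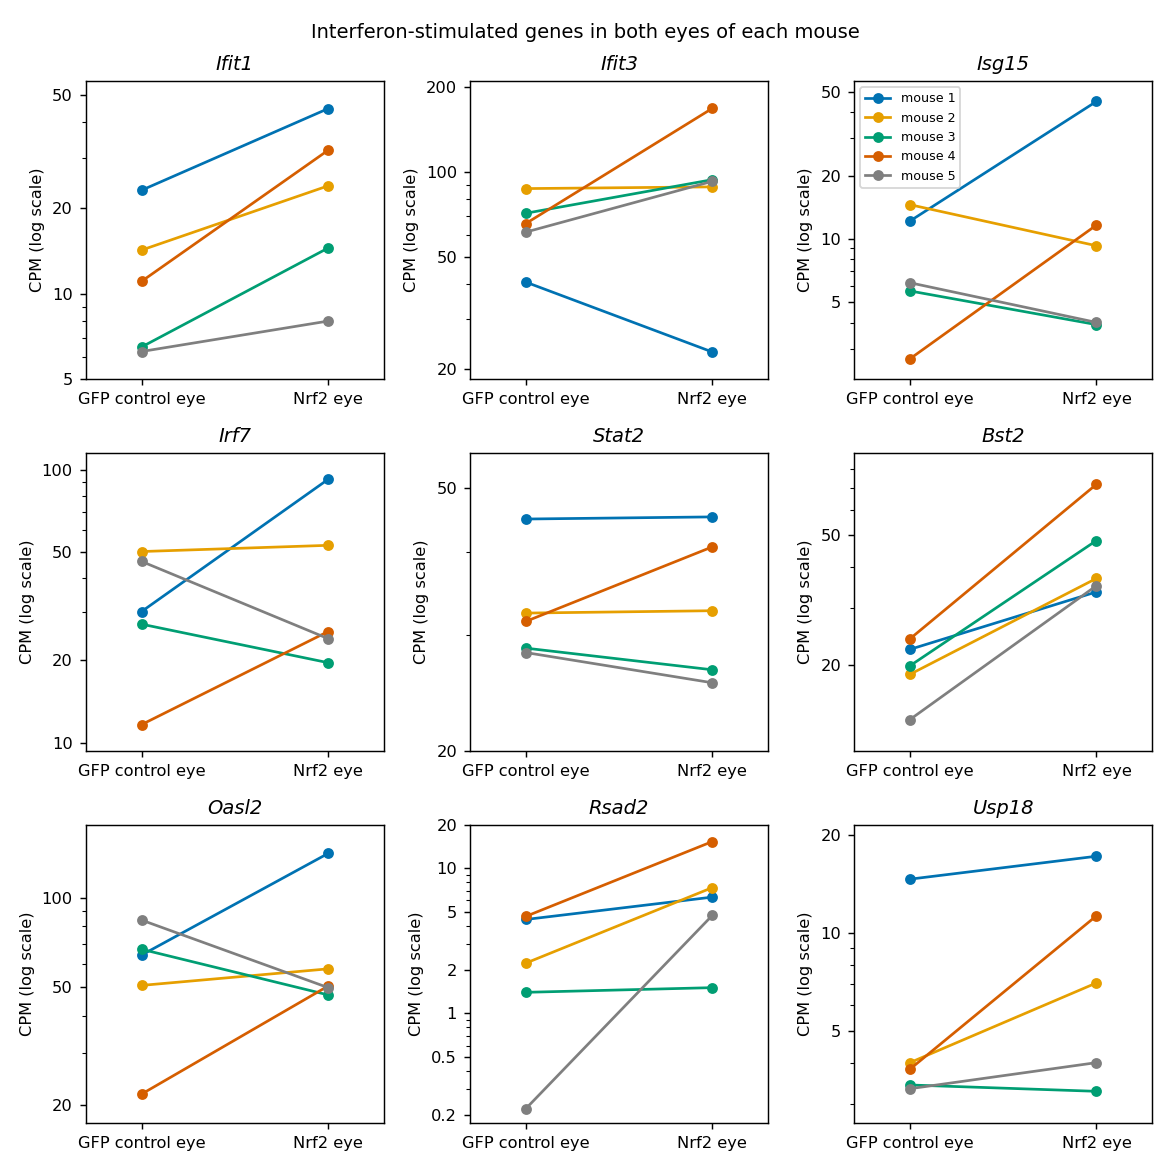
CPM on a log scale of each of the 9 genes in the GFP control eye and the Nrf2 eye, with a line joining the eyes of each mouse. The lines of Bst2, Ifit1 and Rsad2 rise in all 5 mice, while those of Isg15, Irf7 and Oasl2 rise steeply in mice 1 and 4 and fall in mice 3 and 5.

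Among the antiviral effectors, Bst2 encodes tetherin, a membrane protein that holds budding virus particles on the cell (ENSMUSG00000046718, chr8:71534255-71537456). Bst2 read 22.3, 18.7, 19.8, 24.0 and 13.5 CPM in the control eyes of mice 1 to 5 and 33.5, 36.9, 48.2, 71.9 and 35.0 CPM in their Nrf2 eyes. The lowest Nrf2 eye, that of mouse 1, lay above the highest control eye, that of mouse 4. The means were 19.7 ± 4.01 and 45.1 ± 16 CPM (SD, n = 5), which is a rise of 1.15 on the log2 scale (SE 0.15, adjusted p = 0.00471). Within mice the log2 difference ran from 0.66 in mouse 1 to 1.51 in mouse 4, and leaving out any mouse gave 1.08 to 1.30 with adjusted p from 0.00508 to 0.0215. Bst2 thus passed whichever mouse was left out, and it had no 50-base stretch in common with another gene.

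Ifit1 encodes a protein that binds foreign RNA lacking the host's cap marks (ENSMUSG00000034459, chr19:34640871-34650009). Ifit1 read 23.1, 14.2, 6.49, 11 and 6.26 CPM in the control eyes of mice 1 to 5 and 44.8, 24.0, 14.5, 32.0 and 8.01 CPM in their Nrf2 eyes. All 5 pairs rose, yet the groups overlapped, since the control eye of mouse 1 held more than the Nrf2 eyes of mice 3 and 5. The fitted rise was 0.94 on the log2 scale (SE 0.20, adjusted p = 0.0279), and the within-mouse differences ran from 0.26 in mouse 5 to 1.46 in mouse 4. The size stayed between 0.84 and 1.10 when a mouse was left out, but the adjusted p passed the threshold only without mouse 5 (0.0190) and was 0.072, 0.067, 0.080 and 0.067 without mouse 1, 2, 3 and 4. Without the mouse as a block the log2 fold change was 1.02 and the adjusted p 0.348. Of its 50-base stretches, 7.13% recur in other genes, nearly all in Ifit1bl2.

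Ifit3, which works with other Ifit proteins (ENSMUSG00000074896, chr19:34583531-34588731), read 40.7, 87.3, 71.4, 65.6 and 61.2 CPM in the control eyes of mice 1 to 5 and 23, 88.5, 93.9, 168 and 92.6 CPM in their Nrf2 eyes. The Nrf2 eye of mouse 4 stood above the rest, and both eyes of mouse 1 were the lowest of all 10. Ifit3 had a fitted log2 fold change of 0.30 that did not pass (SE 0.33, adjusted p = 0.642), and it was 0.08 without mouse 4 and 0.59 without mouse 1. The neighbouring copy Ifit3b shares 51.24% of the 50-base stretches of Ifit3, so that the split of reads between them is uncertain. Both copies together read 96.3, 137, 123, 116 and 98.2 CPM in the control eyes and 90.0, 149, 168, 253 and 159 CPM in the Nrf2 eyes, again higher in 4 of 5 mice and lower in mouse 1.

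Oasl2, a relative of the oligoadenylate synthetases that sense double-stranded RNA (ENSMUSG00000029561, chr5:114896936-114912234), read 64.1, 50.6, 67.0, 21.8 and 84.1 CPM in the control eyes of mice 1 to 5 and 141, 57.6, 47.0, 50.4 and 49.8 CPM in their Nrf2 eyes. The Nrf2 eye of mouse 1 stood apart from the other 4, which lay inside the range of the control eyes. Oasl2 was higher in 3 of 5 mice, with log2 differences of 1.21, 0.17, -0.49, 1.14 and -0.84 in mice 1 to 5. Its value of 0.23 on the log2 scale did not pass (SE 0.42, adjusted p = 0.805). This value became 0.01 without mouse 1, 0.035 without mouse 4 and 0.51 without mouse 5.

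Rsad2 encodes viperin, an enzyme that makes a chain terminator of viral RNA synthesis (ENSMUSG00000020641, chr12:26442746-26456452). Rsad2 read 4.44, 2.22, 1.40, 4.66 and 0.220 CPM in the control eyes of mice 1 to 5 and 6.33, 7.36, 1.50, 15.3 and 4.74 CPM in their Nrf2 eyes. All 5 pairs rose, by as little as 0.12 on the log2 scale in mouse 3 and as much as 3.83 in mouse 5, whose control eye held 6 counts. The log2 fold change of 1.54 had an SE of 0.64 and did not pass (adjusted p = 0.179), and it was 1.05 without mouse 5 and 1.94 without mouse 3. By DESeq2 with the mouse as a block it was 1.57 and passed (adjusted p = 0.0257).

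Isg15 is a ubiquitin-like protein that is attached to other proteins in the response (ENSMUSG00000035692, chr4:156199424-156200818). Isg15 read 12.1, 14.5, 5.66, 2.69 and 6.19 CPM in the control eyes of mice 1 to 5 and 45.0, 9.27, 3.91, 11.6 and 4.01 CPM in their Nrf2 eyes. The Nrf2 eye of mouse 1 held 3.87 times the next Nrf2 eye and 61.0% of the sum over the Nrf2 eyes. Mice 1 and 4 rose by 1.96 and 2.01 on the log2 scale, while mice 2, 3 and 5 had differences of -0.66, -0.50 and -0.70. Together this left a log2 fold change of 0.40 that did not pass (SE 0.64, adjusted p = 0.789). It was -0.00044 without mouse 1, 0.028 without mouse 4 and 0.75 without mouse 2.

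Usp18 removes Isg15 from proteins and also binds the interferon receptor to dampen it (ENSMUSG00000030107, chr6:121245906-121270917). Usp18 read 14.6, 4.00, 3.42, 3.82 and 3.33 CPM in the control eyes of mice 1 to 5 and 17.2, 7.04, 3.27, 11.3 and 4.01 CPM in their Nrf2 eyes. Both eyes of mouse 1 were the highest of their groups, and the other 4 control eyes lay close together. Its value of 0.55 on the log2 scale did not pass (SE 0.27, adjusted p = 0.324), and it was 0.35 without mouse 4, in which the difference was the largest at 1.47. The gene overlaps the lincRNA Gm44148 on the opposite strand, which had a mean of 0.639 CPM.

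Irf7 is the transcription factor that turns on the interferon alpha genes (ENSMUSG00000025498, chr7:141262706-141266481). Irf7 read 30.2, 50.1, 27.2, 11.6 and 46.1 CPM in the control eyes of mice 1 to 5 and 92.1, 52.8, 19.6, 25.5 and 24.0 CPM in their Nrf2 eyes. The within-mouse log2 differences were 1.68, 0.06, -0.45, 1.06 and -1.03, so that mice 1 and 4 went one way and mice 3 and 5 the other. For Irf7 the fit gave 0.26 on the log2 scale, which did not pass (SE 0.49, adjusted p = 0.820). It gave -0.071 without mouse 1, 0.078 without mouse 4 and 0.59 without mouse 5. Irf7 and Phrf1 overlap by 45 bases on opposite strands.

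Stat2, the partner of Irf9 at the ISRE (ENSMUSG00000040033, chr10:128270559-128292849), read 44.9, 32.3, 28.6, 31.4 and 28.2 CPM in the control eyes of mice 1 to 5 and 45.2, 32.6, 26.5, 40.7 and 25.4 CPM in their Nrf2 eyes. Its levels followed the mouse more than the vector, with both eyes of mouse 1 the highest of their groups. The fitted log2 difference of Stat2 was 0.01 and did not pass (SE 0.09, adjusted p = 0.976), and it was -0.029 without mouse 4. Stat2 had the smallest spread of within-mouse differences of the 9, an SD of 0.21 on the log2 scale against a median of 0.41 over all genes. The SD was 0.33 for Bst2 and 0.45 for Ifit1, and from 0.61 for Usp18 to 1.43 for Isg15 and Rsad2 for the other 6 genes.

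**Figure D2:**
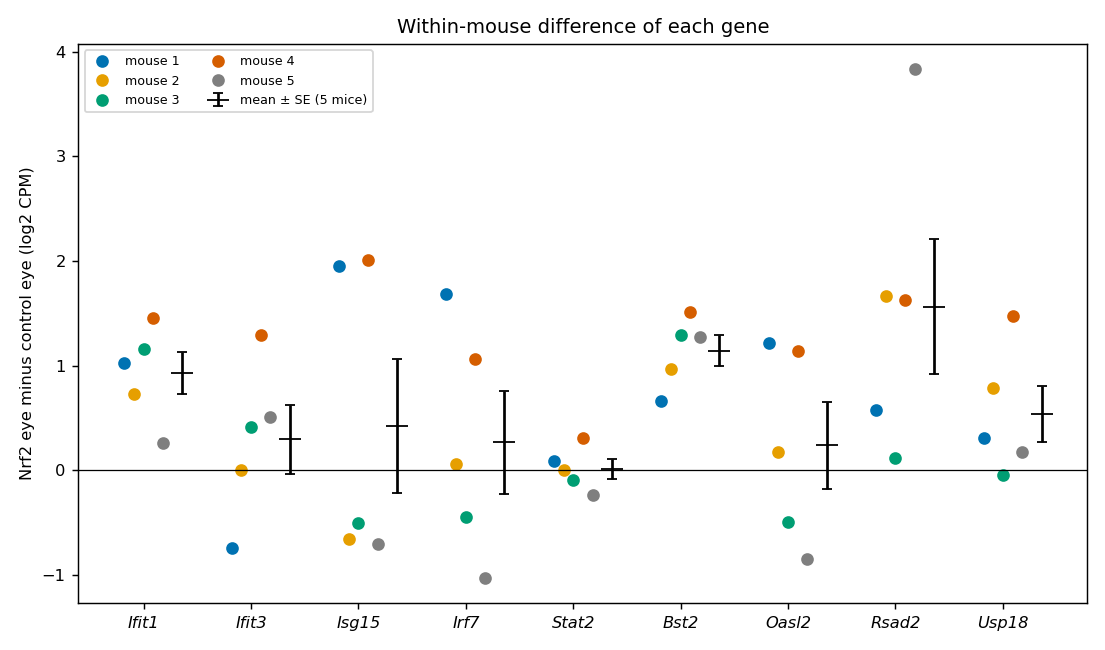
Nrf2 eye minus control eye in log2 CPM for each gene and mouse (coloured points), with the mean and its SE over the 5 mice (black). All points of Bst2, Ifit1 and Rsad2 lie above 0, Stat2 stays within 0.31 of 0, and for Isg15, Irf7 and Oasl2 mice 1 and 4 lie above 1 while mice 3 and 5 lie below 0.

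Read by mouse, the response differed among the pairs. By log2 CPM, the Nrf2 eye was higher in 9 of the 9 genes in mouse 4 and 8 of 9 in mouse 1, but in 7 of 9 in mouse 2, 5 of 9 in mouse 5 and 4 of 9 in mouse 3. Log2 CPM also carried a normalization factor for each library, which the printed CPM did not. Stat2 of mouse 2 thus counted as lower, at -0.0029, although it read 32.3 and 32.6 CPM. The median log2 difference over the 9 genes was 1.46 in mouse 4 and 0.66 in mouse 1, against 0.17 in mice 2 and 5 and -0.04 in mouse 3. Over all tested genes the share higher in the Nrf2 eye was between 44.6% and 52.0% in each mouse. Mouse 4 had the largest rise for 6 of the genes, mouse 1 for 2 and mouse 5 for 1, and mouse 5 had the smallest difference for 5.

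The highest of all 10 libraries was the Nrf2 eye of mouse 1 for 6 genes and the Nrf2 eye of mouse 4 for the other 3. These 2 libraries were the highest for 19.8% of all tested genes. The pairs did not start level, since over the 9 genes the control eyes of mice 1 to 5 had a mean log2 CPM of 4.48, 4.18, 3.82, 3.66 and 3.58 and their Nrf2 eyes one of 5.23, 4.60, 3.97, 4.98 and 3.94. Mouse 1 was thus the highest in both groups, while mouse 4 had the second lowest control eye and the second highest Nrf2 eye.

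Across the 10 libraries, which share mice and were all read against the same total, Ifit1 and Usp18 followed the mean of the other members most closely, with Pearson's r of 0.91 and 0.85 over log2 CPM. Stat2 and Isg15 followed at 0.75 and 0.73, Rsad2 had 0.51, Bst2 0.46, Irf7 0.40 and Oasl2 0.34, and Ifit3 ran against the others at -0.36. These values are descriptions over 10 libraries. Bst2, the gene that rose most evenly, was therefore not among those that followed the other members most closely.

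The 10 tested genes outside the list whose log2 CPM was most like the mean of the 9, ranked by r over the 10 libraries, were Pigr, Cmpk2, Lcn2, Gm1976, Lman1l, H2-T22, Phf11b, Rnf31, Irf9 and Ltb. Pigr, which carries antibodies across epithelia, had an r of 0.95, and Cmpk2, an interferon-stimulated kinase whose gene lies beside Rsad2, had 0.94. The Nrf2 eyes of mice 1 and 4 lay farthest from the median. Without these 2 libraries r was 0.95 for Cmpk2, 0.88 for Lcn2, 0.87 for Pigr and between 0.71 and 0.79 for the other 7 genes. Pigr read 14.7, 11.6, 7.82, 4.48 and 6.52 CPM in the control eyes of mice 1 to 5 and 51.9, 15.2, 5.45, 28.2 and 5.89 CPM in their Nrf2 eyes, the same high libraries as for the members.

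The rest of the pathway was read from 8 lists of 147 genes, of which 118 were tested. The most abundant gene of a list, here and for the marker lists, is the one with the highest mean CPM over all 10 libraries. Of these, 9 were higher in the Nrf2 eyes and 0 lower by edgeR (7.63%, against 3.60% higher over all tested genes), and the median log2 fold change was 0.35 against -0.01 over all genes. At an unadjusted p under 0.05, 30 were higher (25.4%) and 2 lower (1.69%), against 9.58% and 9.53% of all genes. DESeq2 called 22 of 124 higher (17.7%) and 1 lower (0.806%), against 5.42% and 3.83% of the 19592 genes it gave an adjusted p. The 9 pathway genes called by edgeR were higher in all 5 mice. The count was 2 without mouse 4, 4 without mouse 5, 5 without mouse 2, 7 without mouse 1 and 8 without mouse 3, while the calls over all genes fell from 1036 to 613, 683, 584, 857 and 714 in the same fits. For 82 of the 118 genes (69.5%) the highest library was the Nrf2 eye of mouse 1 or of mouse 4.

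Of the 21 interferon genes, 17 had no count in any library, where a count of 0 allows up to 0.110 to 0.244 CPM depending on the library, and none could be tested by edgeR. DESeq2 gave 1 of the 21 an adjusted p and called 0. Ifnb1 had 2 counts in a control eye and 1 in a Nrf2 eye, both of mouse 3. Ifng, the interferon of T and NK cells, had 3 counts in the control eye of mouse 4, 27 counts (2.20 CPM) in its Nrf2 eye and 0 in the other 8 libraries.

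Of the 9 receptor chains and kinases, 2 were higher and 0 lower, and the list's median log2 fold change was 0.15. Ifnar2, a chain of the type I receptor, read 46.9, 35.3, 33.4, 43.5 and 26.3 CPM in the control eyes of mice 1 to 5 and 58.1, 56.5, 79.4, 85.6 and 69.8 CPM in their Nrf2 eyes, without overlap. On the log2 scale it rose by 0.91 (SE 0.18, adjusted p = 0.0160). Il10rb, a chain shared by the receptors of interferon lambda and interleukin 10, had 0.63 (SE 0.13, adjusted p = 0.0282), and it lies beside Ifnar2 on chromosome 16. Jak1, the most abundant of this list, had 0.12 (SE 0.24, adjusted p = 0.838).

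Among the 9 other STAT and IRF transcription factors, 1 was higher and 0 lower, with a median of 0.33. Irf8, a factor of macrophages and dendritic cells, read 4.90, 4.25, 4.47, 7.41 and 4.21 CPM in the control eyes of mice 1 to 5 and 15.9, 8.21, 11.6, 42.4 and 33.1 CPM in their Nrf2 eyes, without overlap. Its rise was 1.90 on the log2 scale (SE 0.35, adjusted p = 0.0121). Stat3 was the most abundant, at 169 ± 43.3 and 211 ± 28.4 CPM, and did not pass (0.33, SE 0.17, adjusted p = 0.302). Of the 16 tested sensors and adaptors for nucleic acids, 1 was higher and 0 lower, with a median of 0.33. It was Unc93b1, which brings Toll-like receptors to endosomes and was the most abundant over all libraries though below Mavs in the control eyes, at 45.0 ± 13.7 and 72.5 ± 18.6 CPM (0.68, SE 0.15, adjusted p = 0.0316).

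The largest list held 50 other interferon-stimulated genes, of which 49 were tested, 4 were higher and 0 lower. Of these 49, 44 had a log2 fold change above 0, and the median was 0.38. Mx1, a GTPase that blocks viral polymerases, had the largest change, 2.37 (SE 0.37, adjusted p = 0.0485), from counts of 0 to 29 in the control eyes and 16 to 65 in the Nrf2 eyes. Lgals9, a lectin, had 1.52 (SE 0.36, adjusted p = 0.0282), Lgals3bp, a secreted glycoprotein, 0.90 (SE 0.18, adjusted p = 0.0192), and Ifit3b 0.52 (SE 0.09, adjusted p = 0.0297). Ifitm1 was the most abundant, at 350 ± 56.0 and 474 ± 160 CPM, and did not pass (0.37, SE 0.25, adjusted p = 0.429).

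None of the 5 genes listed for Isg15 conjugation passed by edgeR or DESeq2, with 1 higher at an unadjusted p under 0.05 and a median of 0.10. Their most abundant gene Uba1, which activates ubiquitin rather than Isg15, had 0.02 (SE 0.12). Of 15 inhibitors of the pathway, 1 was higher and 0 lower, with a median of 0.20. Socs3, which shuts off JAK kinases after cytokine signals, read 7.60, 6.47, 6.91, 7.53 and 5.35 CPM in the control eyes of mice 1 to 5 and 14.4, 25.8, 16.1, 36.1 and 31.4 CPM in their Nrf2 eyes, without overlap. Its rise on the log2 scale was 1.78 (SE 0.28, adjusted p = 0.00741), and it passed under each alternative that was run. Ptpn1, the most abundant of this list, had 0.20 (SE 0.28, adjusted p = 0.748).

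The median log2 difference of the 49 other interferon-stimulated genes was 0.75, 0.12, -0.04, 0.96 and 0.03 in mice 1 to 5, the order found for the 9 genes but for mice 2 and 5, which were level there. The genes led by interferon gamma differed most in a single eye. Of 22 listed, 17 were tested and none passed by edgeR, with 4 higher at an unadjusted p under 0.05 and 4 called higher by DESeq2. Their median log2 fold change was 0.76, and 5 of the 17 (29.4%) were higher in the Nrf2 eye of all 5 mice, against 9.23% of all genes. By mouse, their median difference was 2.73 in mouse 4 against -0.11 to 0.47 in the other 4 mice. They summed to 289, 233, 271, 168 and 188 CPM in the 5 control eyes, in the order of the mice, and 419, 277, 272, 1668 and 236 CPM in their Nrf2 eyes. The Nrf2 eye of mouse 4 was the highest library for 13 of the 17, or 76.5%, as it was for 13.3% of all tested genes. The 17 are not all separate loci, since the span of Igtp overlaps that of Irgm2 on chromosome 11. Likewise, Gbp4, Gbp8 and Gbp9 overlap on chromosome 5. Wars, the most abundant of the list over all libraries, though its mean over the Nrf2 eyes lay below those of Igtp and Irgm1, which the Nrf2 eye of mouse 4 raised, had a fitted log2 value of -0.06 (SE 0.11, adjusted p = 0.861).

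**Figure D3:**
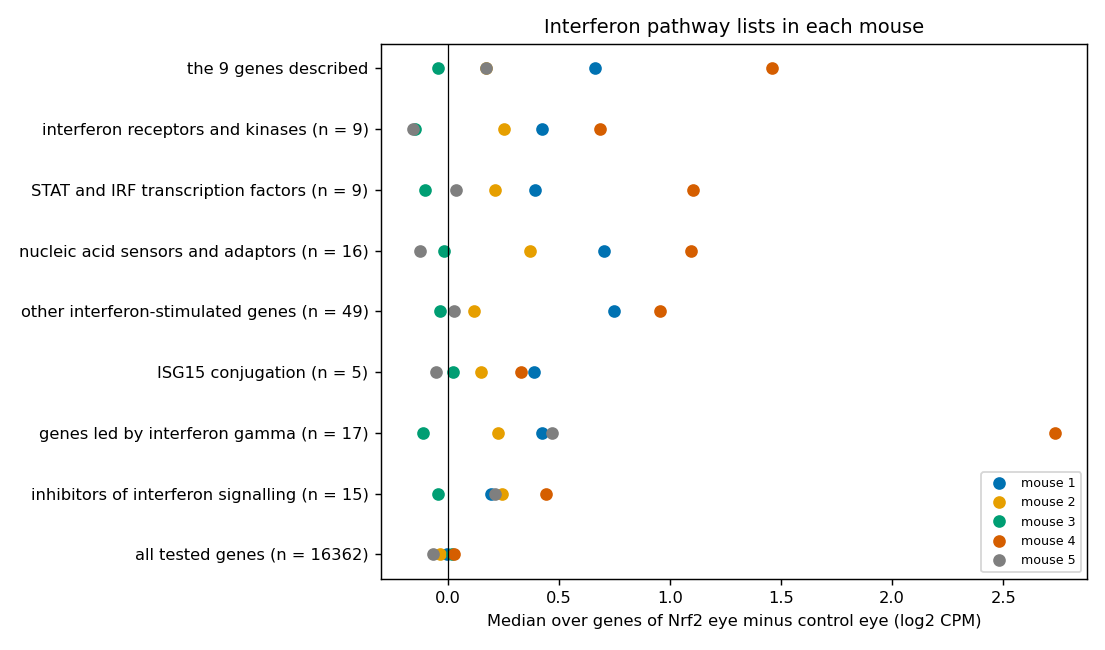
Median over the tested genes of each list of the Nrf2 eye minus the control eye, in log2 CPM, with a point for each mouse, and n the number of genes tested. Mice 1 and 4 lie to the right in most lists, mouse 3 lies near or below 0, mouse 4 stands alone at 2.73 for the genes led by interferon gamma, and in the top row the point of mouse 2 is hidden behind that of mouse 5 at 0.17.

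Markers of other cells moved as well. Of 18 macrophage and microglia markers, 14 were higher and 0 lower in the Nrf2 eyes, and the median log2 fold change was 4.00. They summed to 366, 321, 399, 354 and 329 CPM in the control eyes of mice 1 to 5 and to 1374, 664, 961, 1529 and 2722 CPM in their Nrf2 eyes, without overlap. The most abundant of them over all libraries, Csf1r, whose mean over the Nrf2 eyes but not every eye lay below those of Ctss, C1qa, C1qb and C1qc, was lower in 4 of 5 Nrf2 eyes and did not pass (-0.57, SE 0.33, adjusted p = 0.301). Csf1r and Itgam, the latter named after its values were seen, made up most of the control sums, with control means of 196 and 93.8 CPM. Itgam did not pass either (0.34, SE 0.36, adjusted p = 0.618). The highest sum of the 18 markers was in the Nrf2 eye of mouse 5. The 10 T and NK cell markers, of which 2 were tested and none passed by edgeR or at an unadjusted p under 0.05 (DESeq2 called 1 of 8 higher), summed to 2.53 to 4.60 CPM in the control eyes, 3.01 to 5.28 CPM in the Nrf2 eyes of mice 1, 2, 3 and 5 and 31.4 CPM in that of mouse 4, with Lck at 7.89 CPM there. The 6 markers of plasmacytoid dendritic cells, a major source of interferon alpha, summed to 14.7 to 84.1 and 25.1 to 93.9 CPM, higher in the Nrf2 eye of all 5 mice. Of the 3 tested, Siglech, named after its values were seen and also expressed by microglia, was higher (3.78, SE 0.57, adjusted p = 0.00822), while Pacsin1, the most abundant, had 0.15 (SE 0.30, adjusted p = 0.840). The part of these cells in the levels of the 9 genes was not tested.

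**Figure D4:**
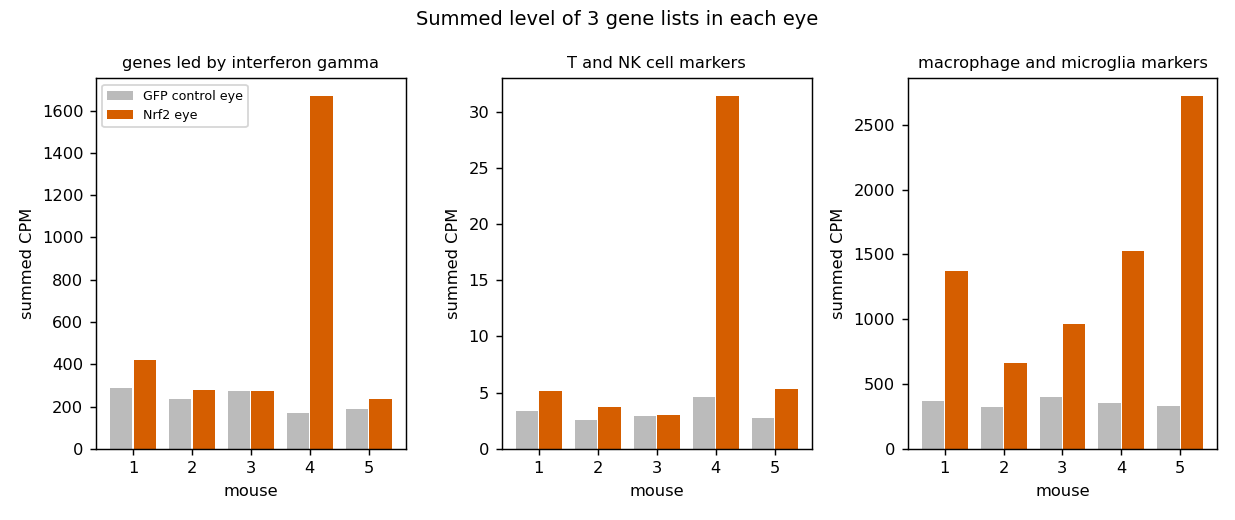
Summed CPM in the GFP control eye (grey) and the Nrf2 eye (orange) of each mouse for the 22 genes led by interferon gamma, the 10 T and NK cell markers and the 18 macrophage and microglia markers. The Nrf2 eye of mouse 4 stands apart in the first and second panels, at 1668 and 31.4 CPM, while in the panel of macrophage markers all 5 Nrf2 eyes lie above all control eyes.

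No marker of the remaining lists passed by edgeR in either direction, and 1, a rod marker, was lower at an unadjusted p under 0.05 and by DESeq2. The most abundant were Plac8 for monocytes, Jchain for B cells, Ly6g for neutrophils, Plvap for endothelium, Dcn for fibroblasts and Acta1 for muscle. Monocyte markers summed to 50.5 to 248 CPM in the control eyes and 96.9 to 248 CPM in the Nrf2 eyes, B cell markers to 1.05 to 7.64 and 1.58 to 4.39 CPM, and neutrophil markers to 1.36 to 3.47 and 0.650 to 4.92 CPM, with Ngp at 0 in all libraries. Endothelial markers summed to 29.8 to 157 and 67.6 to 141 CPM, fibroblast markers to 125 to 677 and 135 to 774 CPM, and skeletal muscle markers to 48.6 to 96.7 and 5.46 to 566 CPM. Rod markers, from 37.7 to 17993 and from 61.6 to 6948 CPM, were the most uneven of these, highest in both eyes of mouse 2. Rod markers were lowest among the control eyes in mouse 1 and among the Nrf2 eyes in mouse 4, whose control eye held 2656 CPM. Fibroblast markers read 677 and 135 CPM in the control and Nrf2 eye of mouse 1, and 214 and 774 CPM in those of mouse 4. Muscle markers read 83.5 and 5.46 CPM in mouse 1, and 96.7 and 244 CPM in mouse 4. Both sums were higher in the Nrf2 eye of 3 of 5 mice. The part of rods, fibroblasts and muscle in the levels of the 9 genes was not tested.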

How the data were processed

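The authors mapped their reads by STAR onto mm10, used Ensembl release 91 transcripts and counted genes by featureCounts, and in parallel with Salmon (0.8.2, per the labels' processing notes). Which counts were deposited and the strand setting are not given in the sources used here. What was deposited are whole-number counts for each gene, not normalized by the authors. Of the gene identifiers, 47310 (99.1%) had a symbol and a position in GENCODE M21 (GRCm38), and the table held 0 columns of other samples. PolyA RNA had been amplified from low input, so counting floors (3 counts) cover counting error only.

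The 9 genes and all lists were chosen with earlier results of these data known. The test was edgeR 4.0.16 (R 4.3.3) with filterByExpr, TMM and a block for the mouse (quasi-likelihood F test, Benjamini-Hochberg over all tested genes, threshold 0.05). The eyes were paired by the animal in the labels, and deviations from the group means correlated within mice with r of 0.19 to 0.71 across genes. Log2 CPM used the TMM factors and a prior count of 2, while the printed CPM used the library totals alone. Named beside the 9 genes were, in each pathway list, up to 4 genes that passed in each direction, in every list the most abundant gene, the 10 genes most like the mean of the 9, and Nfe2l2. Some genes that this rule or the lists hold are not reported here. The scripts were tested on simulated data. Alternatives were DESeq2 1.42.0, its size factors, no filter, a mean of at least 50 counts, no mouse block, thinning to the smallest library and leaving out each mouse. All pairs of libraries differed beyond sampling noise (lowest chi-square per degree of freedom 34.5). That each mouse is a separate animal comes from the labels.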

Additional observations from a re-analysis of the deposited data

Results flagged for a closer look

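Among 29 sets of 5 values of the 9 genes, 3 held an eye far from the others, with a gap to its neighbour above 0.71 of the whole range, where chance gives about 1.45. All 3 are eyes of mouse 1. Usp18 was high in its control eye, at 3.86 log2 CPM against 1.82 to 2.00 in the other 4 control eyes (gap over range 0.911). Stat2 was high in the same control eye, at 5.47 against 4.86 to 4.99 (0.790). Oasl2 was high in the Nrf2 eye of mouse 1, at 7.20 against 5.59 to 5.80 in the other Nrf2 eyes (0.871).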

How the results depend on the processing

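The rise of Bst2 passed under all 11 alternatives. The number of genes that passed was 1812 by DESeq2 and 755 without the replicate block (of which 687 were among the 1036 of the paired test), and 584 to 857 when a mouse was left out. Of the 9 genes, 1 passed without the replicate block and 1 to 2 when a mouse was left out. Ifit1 was the gene lost, at 1.02 without the block and in all fits that left out a mouse but the one without mouse 5 (0.84 to 1.10 over the 5), and Rsad2 was gained by DESeq2 at 1.57. Of the pathway genes, 23 passed by DESeq2, 14 without a filter on low counts and 2 to 8 when a mouse was left out. Leaving out a mouse turned the sign of Isg15 (-0.00044 to 0.75), Irf7 (-0.071 to 0.59) and Stat2 (-0.029 to 0.10), and thinning to the smallest library gave -0.017 for Stat2. Besides having fewer samples when a mouse is left out, the cause of these shifts was not tested. The calls of Unc93b1 and Lgals9 were each lost under 5 alternatives and that of Mx1 under 5 of the 10 that tested it (it was not tested at a mean of at least 50 counts), those of Il10rb and Ifit3b under 4, of Lgals3bp under 2 and of Ifnar2 and Irf8 under 1. With 5 pairs, changes in genes that vary between mice as widely as Isg15 or Rsad2 are poorly resolved, and the Nrf2 eyes differ from the control eyes by an additional vector as well as by Nrf2, which cannot be told apart.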

Other observations

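The genes in this paragraph were picked after their values were seen. Igtp, a GTPase induced by interferon gamma, read 21.5, 10.8, 19.6, 8.36 and 6.85 CPM in the control eyes of mice 1 to 5 and 49.3, 44.0, 41.6, 383 and 29.6 CPM in their Nrf2 eyes. It was higher in all 5 mice and its groups did not overlap, and the fitted rise of 2.22 on the log2 scale did not pass (SE 0.79, adjusted p = 0.0929, edgeR). The span of Igtp overlaps that of Irgm2. The T cell chemokines Cxcl9 and Cxcl10 had counts in too few libraries for the filter of the edgeR test and were not tested there. Cxcl9 reached 82.9 CPM in the Nrf2 eye of mouse 4 and at most 0.816 CPM in the other libraries. Cxcl10 read 1.28, 0, 0.209, 0.299 and 0 CPM in the control eyes of mice 1 to 5 and 3.51, 7.04, 0.338, 96.5 and 0 CPM in their Nrf2 eyes.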
